A study of Mus musculus with 15 samples.

Results

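The transcription factor NRF2 and a set of antioxidant enzymes were followed in the mouse ovary as 10 genes of the 27907 in the deposited table of normalized counts, namely Nfe2l2, which encodes NRF2, 5 genes known as NRF2 targets (Nqo1, Gclc, Gclm, Txnrd1 and Srxn1), and 4 enzymes that act on superoxide or peroxide (Cat, Sod1, Sod2 and Sod3). The genes were chosen by name, with earlier results of these data known, and each was found on 1 row of the table. Counts of them set beside all genes are therefore a description. Ovaries of 7 homozygous HSD17B1 Ser143Ala females (HSD17B1-KI) and 8 wild-type females (WT) were compared, all at 6 months of age and in estrus, with 1 library per mouse. The HSD17B1-KI line was made with CRISPR/Cas9, carries an alanine in place of the active-site serine of HSD17B1 in every cell, and came with its WT controls from crosses of heterozygous parents, and no further treatment was given. The tissue was whole ovary, in which fewer cells of a type and less RNA per cell cannot be told apart.

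NRF2 is held at low levels by KEAP1, an adaptor that delivers it to a CUL3 ubiquitin ligase. Electrophiles and oxidants modify KEAP1, upon which NRF2 accumulates, pairs with small MAF proteins and binds antioxidant response elements in the promoters of its target genes, so that its activity is set largely by protein stability and need not show in Nfe2l2 mRNA. Superoxide dismutases turn superoxide into hydrogen peroxide in the cytosol (SOD1), the mitochondrial matrix (SOD2) and the extracellular space (SOD3), and catalase splits hydrogen peroxide in peroxisomes. In the ovary, steroidogenic cells produce such oxidants as their mitochondrial P450 enzymes work, and these enzymes are part of their known defense.

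The antioxidant response element is what ties the target genes to NRF2, and the stretches that hold such letters are shown for that reason. The core TGACNNNGC and the form TGANTCAGC were searched on both strands in the 250 bases before each RefSeq start (GRCm38.p6), and the 2 forms overlap, since the same bases can match both. The window table held 8 of the 10 genes, and Gclc and Sod3 had no entry. Of these 8, 5 held a match at 1 or more starts (Nfe2l2, Gclm, Txnrd1, Srxn1 and Sod1). TGACNNNGC was found at 10.2%, TGANTCAGC at 1.02% and either form at 10.7% of all 32851 starts, which are shares per start and not per gene. The matches are printed 5′ to 3′ on the strand of the gene, with the matched letters in capitals, read as the reverse complement in Gclm, Txnrd1 and Sod1.
Nfe2l2 (chr2:75704870-75704913, minus strand, TGACNNNGC): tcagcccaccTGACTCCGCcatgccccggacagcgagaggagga
Gclm (chr3:122245398-122245456, plus strand, TGACNNNGC): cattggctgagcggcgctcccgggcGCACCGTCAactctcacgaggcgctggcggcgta
Txnrd1 (chr10:82859089-82859147, plus strand, TGACNNNGC): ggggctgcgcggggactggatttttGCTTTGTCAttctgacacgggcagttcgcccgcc
Srxn1 (chr2:152105454-152105512, plus strand, TGANTCAGC): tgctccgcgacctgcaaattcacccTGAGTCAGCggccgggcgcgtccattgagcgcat
Sod1 (chr16:90220681-90220739, plus strand, TGACNNNGC): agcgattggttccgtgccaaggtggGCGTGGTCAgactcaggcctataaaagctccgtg
Srxn1 was the member with the TGANTCAGC form, 36 bases before its start. Txnrd1 has 3 starts in the table, of which 1 held a match. Nqo1, Cat and Sod2 held neither form in this window, and a match is a description of letters, not a bound site.

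Reads on genes numbered from 39092867 to 69972608 per mouse in HSD17B1-KI and from 26544745 to 72362981 in WT. The least read member, Nqo1, had between 176 and 839 reads per mouse, so that counting error was small beside the differences between mice. Expression was compared with limma-trend on log2(normalized count + 1) in the 21525 genes that averaged 2 or more normalized counts over the mice, two-sided, with Benjamini-Hochberg adjustment over all of them. Log2 fold changes are HSD17B1-KI minus WT, and their median over the tested genes was -0.02. The mutated gene, Hsd17b1, had 11650 ± 4351 normalized counts in HSD17B1-KI (SD, n = 7) and 8829 ± 2952 in WT (SD, n = 8), which does not check the genotype, since a point mutation need not alter the mRNA level. Markers of granulosa, luteal, theca and interstitial cells and oocytes were all above 0 in every mouse. Markers of tissue around the ovary varied more widely. The summed count of 8 oviduct markers ran from 1095 to 25355 in HSD17B1-KI and from 1182 to 231857 in WT, and that of 7 adipocyte markers from 2663 to 12457 and from 4021 to 14921, and no marker of either list was called or was at 0 in any mouse. Marker levels leaned with genotype, as the log2 fold change was above 0 for 0 of 8 oviduct (median -0.85), 0 of 8 smooth muscle (median -0.35) and 1 of 7 adipocyte markers (median -1.62), and for 7 of 8 theca and interstitial (median 0.47), 7 of 8 luteal (median 0.44) and 8 of 10 granulosa markers (median 0.27). Of these, 1 theca and interstitial marker, Aldh1a1, was called, and the part of these shifts in the results was not tested beyond the covariate fits.

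None of the 10 genes passed an adjusted p of 0.05 with limma-trend, where 0.214% of all genes did, and none passed with edgeR's quasi-likelihood test, where 0.232% did. DESeq2 on the recovered reads called 2 of the 10, Nqo1 and Sod3, both higher in HSD17B1-KI, where it called 1.59% of genes as higher. At an unadjusted limma-trend p under 0.05, 4 of the 10 were higher (Nqo1, Gclm, Cat and Sod3) and 0 lower, against 5.36% of genes higher. The NRF2 targets held 1 of the genes that DESeq2 called, Nqo1, and the superoxide and peroxide enzymes the other, Sod3. Both are among the genes the study displayed as upregulated in these mice, so that their direction is not independent evidence. The targets and these enzymes had a median log2 fold change of 0.18 each. Log2 fold changes were above 0 for 9 of the 10 genes, with a median of 0.16, and in none did the genotypes separate without overlap, as they did for 0.325% of all genes.

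**Figure D1:**
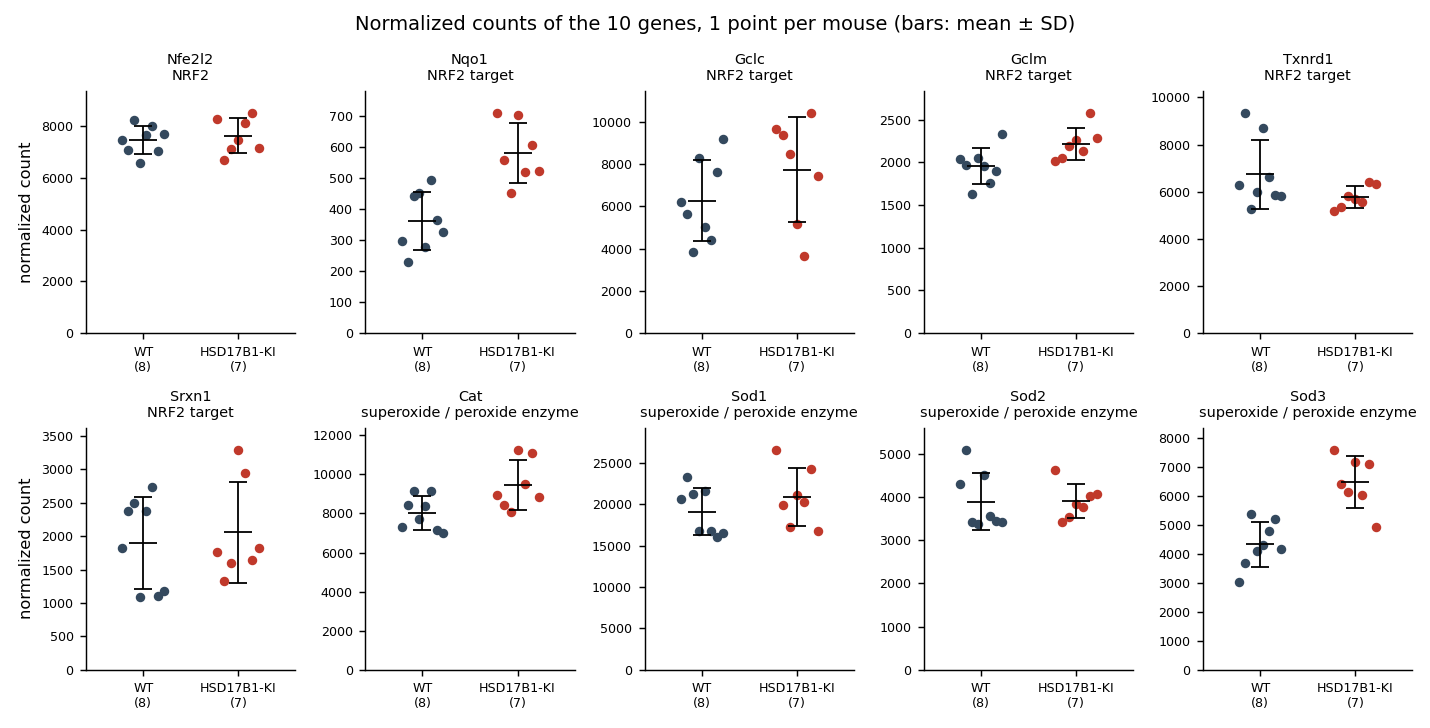
Normalized counts (vertical axes, each starting at 0) of the 10 genes in WT (n = 8) and HSD17B1-KI (n = 7) ovaries, 1 point per mouse, with bars for the mean ± SD. Nqo1 and Sod3 have 6 of 7 HSD17B1-KI mice above every WT mouse, while Gclc and Srxn1 spread widely in both genotypes.

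NRF2 mRNA differed little between the genotypes. Nfe2l2 (ENSMUSG00000015839, chr2:75675513-75704641) had a median of 7490 normalized counts in HSD17B1-KI and lay between 6716 and 8520. In WT it lay between 6586 and 8241, around a median of 7569. The ranges overlapped almost wholly, and the log2 fold change was 0.03 ± 0.06 (SE), with a 95% interval of -0.11 to 0.17 and an adjusted p of 0.922 (limma-trend). Nfe2l2 was also the member that varied least between mice of a genotype, with an SD of 0.12 on the log2 scale beside a median of 0.20 over the 12633 genes that averaged 200 or more normalized counts.

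Nqo1 (ENSMUSG00000003849, chr8:107388225-107403206) encodes a quinone reductase that is widely used as a readout of NRF2 activity. Its median was 560 normalized counts in HSD17B1-KI (452 to 711) and 346 in WT (229 to 493). All mice of the mutant line except HSD17B1-KI 3 lay above every WT mouse, and 6 of 8 WT mice lay below every HSD17B1-KI mouse. The means were 582 ± 97.3 (SD, n = 7) and 361 ± 94.1 (SD, n = 8), a ratio of 1.61. The log2 fold change was 0.72 ± 0.16 (SE), with an adjusted p of 0.0885 by limma-trend, 0.0958 by edgeR and 0.00559 by DESeq2. Its call thus depended on the tool and on the covariates, and the adjusted p of the other settings lay between 0.00559 and 0.187. The luteal marker score had r = -0.55 with Nqo1 over the 15 mice and the adipocyte score -0.09, with genotype means subtracted. With the luteal score as a covariate, the log2 fold change of Nqo1 was 0.81 (adjusted p = 0.0115, limma-trend). That fit called 369 genes across the table, where the fit on genotype alone called 46. With the oviduct score as a covariate instead, the log2 fold change of Nqo1 was 0.67 (adjusted p = 0.0981, limma-trend). The adipocyte score was not fitted, and its part in this difference was not tested.

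The enzymes of glutathione synthesis did not pass the test. Gclm (ENSMUSG00000028124, chr3:122245557-122270732) encodes the modifier subunit of glutamate-cysteine ligase, the first step of glutathione synthesis, and ranged from 2010 to 2578 normalized counts in HSD17B1-KI and from 1633 to 2334 in WT. No mouse of the mutant line fell below the WT mean, yet the difference was small, with a log2 fold change of 0.18 ± 0.07 (SE) and an adjusted p of 0.411 (limma-trend). Gclc (ENSMUSG00000032350, chr9:77754535-77794485) encodes the catalytic subunit of the same enzyme and had a median of 8498 normalized counts in HSD17B1-KI (3664 to 10436) and of 5935 in WT (3827 to 9185). The lowest mice of both genotypes had nearly the same count, and the log2 fold change of 0.28 ± 0.24 (SE) had a 95% interval of -0.22 to 0.79 and an adjusted p of 0.738 (limma-trend), and it was 0.45 without HSD17B1-KI 5. Within a mouse, the log2 ratio of Gclc to Gclm counts ran from 0.78 to 2.27 in HSD17B1-KI and from 1.23 to 2.01 in WT, so that the subunits did not keep a fixed ratio.

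Txnrd1 and Srxn1 serve the thioredoxin and peroxiredoxin systems. Txnrd1 (ENSMUSG00000020250, chr10:82833951-82897712), the cytosolic thioredoxin reductase, was the member with a negative log2 fold change, -0.20 ± 0.11 (SE), with an adjusted p of 0.584 (limma-trend). It ranged from 5167 to 6431 normalized counts in HSD17B1-KI and from 5271 to 9344 in WT, where WT 2 and WT 5 stood at 9344 and 8716 and the other WT mice within the range of 5271 to 6607. Srxn1 (ENSMUSG00000032802, chr2:152105516-152111376) encodes sulfiredoxin, which returns overoxidized peroxiredoxins to use, and ranged from 1333 to 3296 in HSD17B1-KI and from 1084 to 2734 in WT. Its log2 fold change of 0.14 ± 0.25 (SE) had a 95% interval of -0.40 to 0.68 and an adjusted p of 0.897 (limma-trend), and it was 0.0131 when HSD17B1-KI 4 was left out and 0.23 when HSD17B1-KI 2 was. Srxn1 and Gclc had the widest spread of the 10 genes, with an SD within genotype of 0.54 and 0.50 on the log2 scale.

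Of the enzymes that act on superoxide and peroxide, Sod3 showed the clearest difference. Sod3 (ENSMUSG00000072941, chr5:52363791-52371418) had a median of 6398 normalized counts in HSD17B1-KI (4933 to 7597) and of 4247 in WT (3036 to 5392). All mice of the mutant line except HSD17B1-KI 7 lay above every WT mouse. The means were 6486 ± 896 (SD, n = 7) and 4334 ± 781 (SD, n = 8), a ratio of 1.5, and the log2 fold change was 0.59 ± 0.12 (SE). The adjusted p was 0.057 by limma-trend, 0.0554 by edgeR and 0.00143 by DESeq2, and that of the other settings lay between 0.00143 and 0.137. Sod3 passed limma-trend without HSD17B1-KI 5 (adjusted p = 0.0445) and without HSD17B1-KI 7 (adjusted p = 0.0433). The luteal marker score had r = -0.47 with Sod3 and the adipocyte score 0.07. With the luteal score as a covariate, the log2 fold change of Sod3 was 0.65 (adjusted p = 0.00918, limma-trend). With the oviduct score instead, it was 0.56 (adjusted p = 0.0696, limma-trend). The part of the adipocyte score was not tested here either.

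Catalase and the intracellular dismutases differed less. Cat (ENSMUSG00000027187, chr2:103453849-103485160) ranged from 8079 to 11267 normalized counts in HSD17B1-KI and from 6974 to 9169 in WT, and the lowest mouse of the mutant line was just above the WT mean of 8034. Its log2 fold change was 0.23 ± 0.09 (SE), with an adjusted p of 0.36 (limma-trend). Sod1 (ENSMUSG00000022982, chr16:90220754-90226329), the cytosolic copper-zinc enzyme, ranged from 16827 to 26603 in HSD17B1-KI and from 16100 to 23306 in WT, with a log2 fold change of 0.12 ± 0.11 (SE) and an adjusted p of 0.762 (limma-trend). For Sod2 (ENSMUSG00000006818, chr17:13006846-13040063), the mitochondrial manganese enzyme, the means were 3907 ± 394 (SD, n = 7) and 3894 ± 658 (SD, n = 8), and the 95% interval of the log2 fold change was -0.19 to 0.22. The log2 ratio of Sod2 to Sod1 counts ran from -2.59 to -2.04 in HSD17B1-KI and from -2.63 to -2.19 in WT.

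**Figure D2:**
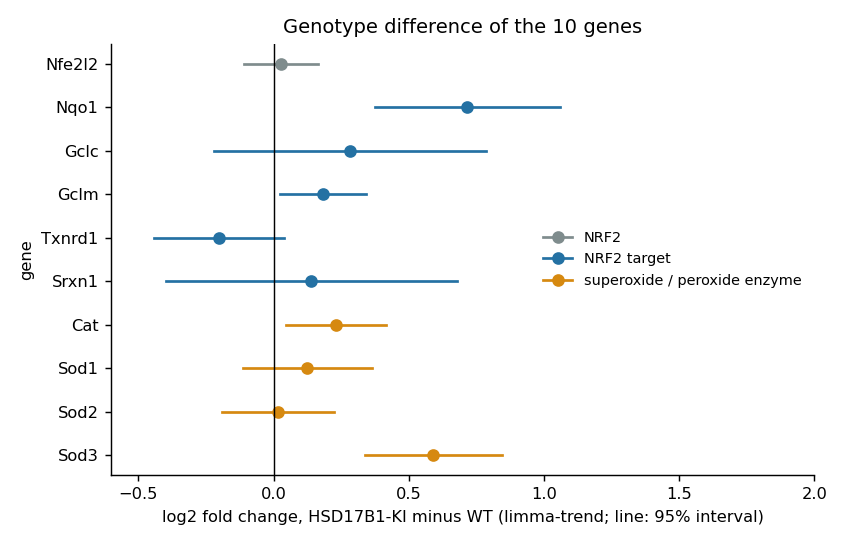
Log2 fold change (horizontal axis, HSD17B1-KI minus WT, limma-trend) of the 10 genes, with lines for the 95% interval and colors for NRF2, its targets and the superoxide and peroxide enzymes. The intervals of Nqo1, Gclm, Cat and Sod3 lie above 0 before adjustment, and those of the other 6 genes cross 0.

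Per kilobase of merged exons, the level was highest for Sod1, with 5261 normalized counts per kilobase in HSD17B1-KI and 4814 in WT, followed by Cat with 3617 and 3075. Gclm was at 352 and 310 and Nqo1 at 375 and 232. On this scale Sod2 stood at 390 and 389, a value lowered by the 10008 bases that its annotated exons cover together. The exons of Gclm cover 6291 bases and those of Nqo1 1553, so that their values too depend on the annotated length. Sod3, at 1735 and 1159, and Nqo1 were the members for which DESeq2 called the genotypes different, and they differed widely in level.

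Gclc and Srxn1, both targets of NRF2, varied in opposite directions from mouse to mouse. HSD17B1-KI 4 and HSD17B1-KI 5 had 5159 and 3664 normalized counts of Gclc, the lowest of their genotype, and 3296 and 2952 of Srxn1, the highest. In WT 3 and WT 6, Gclc was at 3827 and 4393 and Srxn1 at 2491 and 2734, while WT 4, WT 7 and WT 8 had the highest Gclc of their genotype (7644 to 9185) and the lowest Srxn1 (1084 to 1178). The same order thus appeared in both genotypes. Over the 15 mice, with the genotype means subtracted, Pearson's r was -0.89 and Spearman's rho -0.87, given as a description without a p since the pair was noticed in these data. It was -0.89 among HSD17B1-KI and -0.93 among WT mice, and -0.92 without HSD17B1-KI 5 and WT 3, the mice farthest from the median of Gclc.

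**Figure D3:**
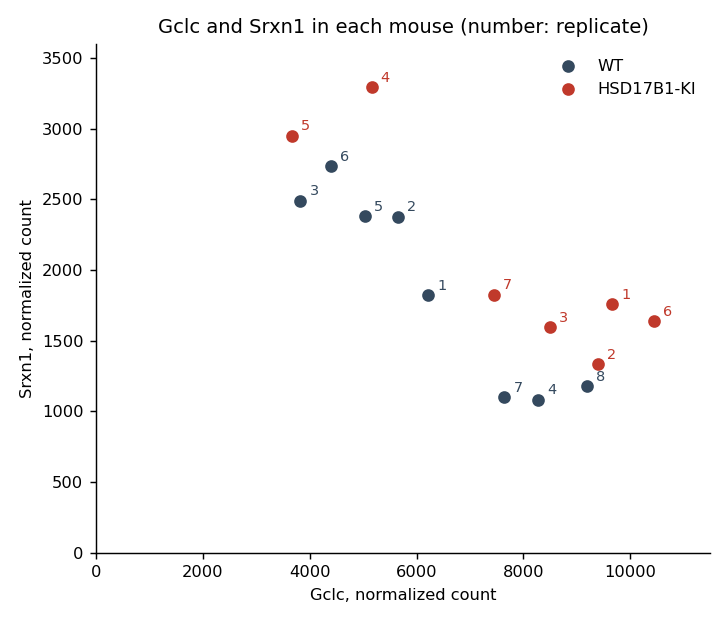
Normalized counts of Gclc (horizontal axis) and Srxn1 (vertical axis) in each ovary, with numbers for the replicate and colors for the genotype. Mice with little Gclc, such as HSD17B1-KI 4 and 5 and WT 3 and 6, have the most Srxn1 in both genotypes.

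The mice with the least Gclc were also those with the least Cyp17a1, the androgen-forming P450 of theca and interstitial cells. Cyp17a1 had 224 and 254 normalized counts in HSD17B1-KI 4 and 5 and 107 and 141 in WT 3 and 6, where the other mice had between 2033 and 56551. Star, which carries cholesterol into mitochondria, was at 73441 and 103552 in HSD17B1-KI 4 and 5, above the 18934 to 28525 of the other HSD17B1-KI mice. In WT 3 and 6 it was at 47695 and 40363, but WT 5 and WT 2, at 41062 and 37296, were close, so that WT mice did not split in the same way. Me1, malic enzyme and itself known as a target of NRF2, was at 212384 and 164143 in these mice and at 155631 and 135205 in WT 3 and 6, the highest of each genotype. Me1 followed Srxn1 with r = 0.94 and Gclc with r = -0.90 over the 15 mice with the genotype means subtracted. The mean score of 8 theca and interstitial markers, which include Cyp17a1, had r = 0.90 with Gclc and -0.85 with Srxn1. Other scores followed both genes too, such as macrophage (-0.84 and 0.71), granulosa (0.69 and -0.75), endothelium (-0.74 and 0.63) and luteal (-0.59 and 0.70). The adipocyte (-0.09 and 0.05) and erythroid scores (-0.03 and 0.17) did not. The part of these scores in these correlations was not tested. With the theca and interstitial score as a covariate, limma-trend gave an adjusted p of 0.0409 for Nqo1, 0.0326 for Sod3 and 0.0491 for Cat. The log2 fold change of Gclc became -0.12. That of Srxn1 went from 0.14 to 0.54 in the same fit, with an adjusted p of 0.0961. Over the whole table, that fit called 250 genes higher and 89 lower, where the fit on genotype alone called 45 and 1. The markers of the score leaned with genotype themselves, as 7 of 8 had a log2 fold change above 0.

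The other members followed different patterns. Cat varied with Srxn1 (r = 0.71, rho = 0.70), although without the 2 mice farthest in Srxn1, HSD17B1-KI 4 and WT 6, r was 0.58. Sod2 varied with Txnrd1 (r = 0.72), a relation that rested on WT 2 and WT 5, without which r was 0.36. These mice were at 5105 and 4509 normalized counts of Sod2, where the other WT mice had 3372 to 4306. Sod1 and Sod2 had r = 0.71, and 0.51 without HSD17B1-KI 1 and WT 2. Nqo1 and Sod3 varied together more loosely (r = 0.63, rho = 0.68). In all, 3 of the 45 pairs of members had an r above 0.7 and 1 below -0.7, with a median r of 0.07, over both genotypes with their means subtracted. Some pairs had opposite signs within the genotypes, which this r averages. Nqo1 had r = 0.80 with Sod1 and 0.61 with Sod2 among HSD17B1-KI mice, but -0.63 and -0.86 among WT mice. For Sod1 and Sod3, r was 0.86 and -0.36. Other pairs kept their sign, such as Sod1 and Sod2 (0.62 and 0.81). Over all mice, the 10 genes thus did not vary as 1 unit. These values share their libraries and cell makeup, and within a genotype they rest on 7 or 8 mice. The luteal marker score had r = 0.64 with both Txnrd1 and Sod2, and its part in these patterns was not tested.

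**Figure D4:**
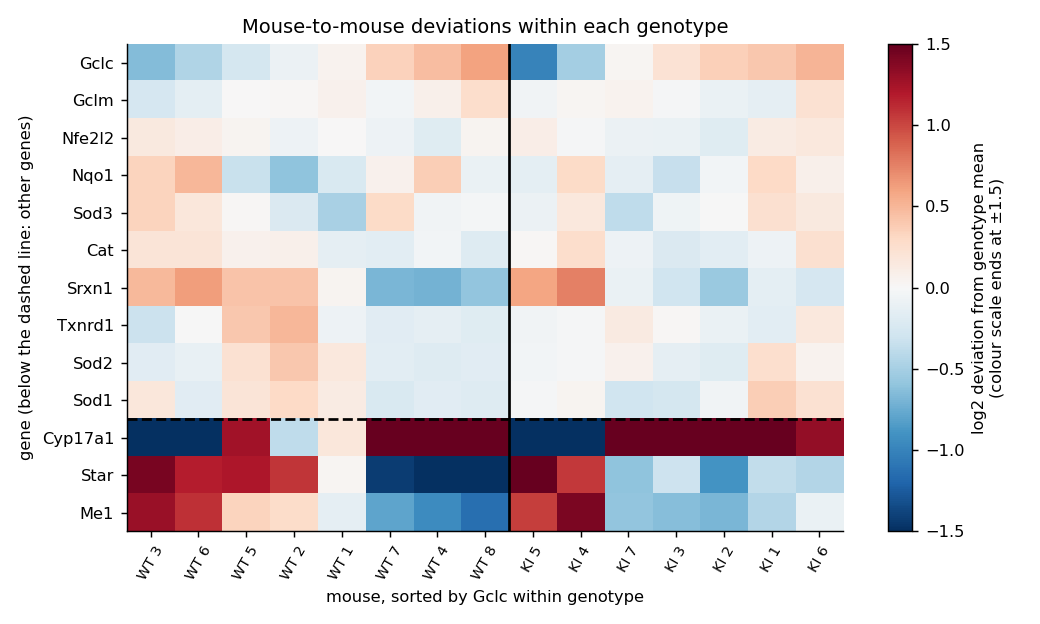
Deviation of each mouse from its genotype mean, in log2(normalized count + 1), for the 10 genes and, below the dashed line, Cyp17a1, Star and Me1, with mice sorted by Gclc within WT and HSD17B1-KI and the color scale ending at 1.5 in either direction. Srxn1, Star and Me1 run against Gclc in both genotypes, and Nfe2l2 and Gclm show little color.

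The genes most like each member were taken as the 3 with the highest r over the 15 mice after the genotype means were subtracted, among genes that averaged 10 or more normalized counts. These numbered 18047 with the member itself. Each r is thus the extreme of many genes over few mice, and no test was made. For Gclc the genes were Defb20, Cnot10 and Icosl (r = 0.96 each). For Srxn1 they were Prkaca, which encodes a catalytic subunit of protein kinase A (r = 0.98), Cldn18 and Tspan5 (r = 0.97 each). Akr1b3, an aldose reductase, was highest for both Nqo1 (r = 0.85) and Sod3 (r = 0.87). Nqo1 was followed by Pcp4l1 (0.82) and Bex1 (0.81), and Sod3 by Fez1 and Ndrg2 (0.87 each). Txnrd1 was most like Sertad2, Skil and the sterol synthesis enzyme Mvd (0.93, 0.93 and 0.90), and Sod2 most like Slc35e3, Slc25a25 and Acat2 (0.94, 0.93 and 0.93). Nfe2l2 was most like Ereg, an epidermal growth factor family ligand made in preovulatory follicles (0.90), Eapp (0.88) and Bhlhe40 (0.88). The values for Gclm were Sccpdh 0.89, Aftph 0.88 and Stau2 0.87, those for Cat were Lbx2, Txndc15 and Taf11 at 0.92 each, and those for Sod1 were Pop7 and Psmg3 at 0.92 and Tk2 at 0.91.

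Around these members, 97 further genes of the pathway were read in 6 lists, also chosen with earlier results of these data known. Of these 97 genes, 2 rose and 0 fell with limma-trend and 14 rose and 1 fell with DESeq2. Over the whole table, limma-trend called 45 genes higher and 1 lower of 21525 (0.214%), and DESeq2 314 higher (1.59%) and 142 lower of 19790. Among 15 regulators of NRF2, none was called by limma-trend or edgeR, and DESeq2 called Sqstm1 and Sesn2. At an unadjusted limma-trend p under 0.05, 3 were higher and 1 lower. Of all 21525 genes, 1154 (5.36%) were higher and 999 lower at that limit. Sqstm1, also called p62, which can sequester KEAP1, had a log2 fold change of 0.43 ± 0.09 (SE) and an adjusted p of 0.0762 by limma-trend and 0.00203 by DESeq2. Sesn2, a stress-induced sestrin, had 0.54 ± 0.13 (SE), with an adjusted p of 0.092 by limma-trend and 0.00846 by DESeq2. The lowest of the list were the related factor Nfe2l3 at -0.54 and the small MAF gene Maff at -0.50, with an adjusted p of 0.628 and 0.374 (limma-trend). Keap1 itself had 3564 ± 131 normalized counts in HSD17B1-KI (SD, n = 7) and 3494 ± 110 in WT (SD, n = 8), a log2 fold change of 0.03 ± 0.04 (SE).

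Of 23 other NRF2 target genes, 1 was called by limma-trend and 7 by DESeq2, all higher in HSD17B1-KI, where these tests called 0.214% of all genes in either direction and 1.59% as higher. At an unadjusted limma-trend p under 0.05, 10 of the 23 were higher and 0 lower, against 5.36% of all genes higher. The median log2 fold change of the list was 0.28, with 19 of 23 above 0. Hmox1, heme oxygenase, had 3741 to 7937 normalized counts in HSD17B1-KI and 1938 to 3506 in WT, so that all 7 mice of the mutant line lay above every WT mouse. The same held, with smaller log2 fold changes, for Pgd (0.23, 9186 to 10822 and 7534 to 9094) and Slc48a1 (0.35, 5139 to 7537 and 3961 to 5063). Of all genes, 0.325% had genotypes without overlap in either direction. Hmox1 rose with a log2 fold change of 0.94 ± 0.18 (SE) and an adjusted p of 0.0468 (limma-trend), which the other settings moved between 0.000311 and 0.103. It was called in 2 of the 15 fits without 1 mouse, those without HSD17B1-KI 5 and HSD17B1-KI 7. Gstm1, a glutathione transferase, had 0.90 ± 0.19 (SE), with an adjusted p of 0.0763 by limma-trend and 0.000444 by DESeq2. The lowest were Slc7a11, the cystine transporter, at -0.33 and Abcc4, an efflux pump, at -0.06, with an adjusted p of 0.754 and 0.886 (limma-trend). Hmox1 and the glutathione transferases are among the genes that the study displayed as upregulated in these same mice, so that their direction is not independent evidence.

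Among 17 peroxiredoxins, thioredoxins and glutathione peroxidases, Gpx3 was called by limma-trend, and Gpx3 and Txnrd3 by DESeq2, all as higher. These tests called 0.214% of all genes in either direction and 1.59% as higher. At an unadjusted limma-trend p under 0.05, 3 were higher and 0 lower, against 5.36% of all genes higher. Gpx3, the secreted glutathione peroxidase, ranged from 29656 to 101425 normalized counts in HSD17B1-KI and from 15068 to 36442 in WT. It rose with a log2 fold change of 1.42 ± 0.26 (SE) and an adjusted p of 0.0371 (limma-trend), between 8.92e-06 and 0.0884 in the other settings, and it too is among the genes the study displayed from these mice. Gpx3 was called in 3 of the 15 fits without 1 mouse, those without HSD17B1-KI 5, HSD17B1-KI 6 and WT 6. The next highest was Glrx at 0.35, and the lowest were Prdx6 at -0.07 and Glrx2 at -0.04, with the list's median at 0.06.

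The 13 superoxide sources and partners of the dismutases held no call by limma-trend, DESeq2 or edgeR. At an unadjusted limma-trend p under 0.05, 2 were higher and 0 lower, against 5.36% of all genes higher. The 13 genes ranged from Ncf1, a subunit of the phagocyte NADPH oxidase, at -0.33 to Atox1 at 0.25 and Ccs at 0.27, the copper chaperone of SOD1. Of 12 genes of glutathione supply and turnover, none was called by limma-trend or edgeR. At an unadjusted limma-trend p under 0.05, 2 were higher and 1 lower, against 1154 higher and 999 lower of all 21525 genes. DESeq2 called Slc3a2 higher (0.51 ± 0.13 SE by limma-trend) and Slc1a5, a glutamine transporter, lower (-0.90 ± 0.26 SE by limma-trend). Over the whole table, DESeq2 called 314 genes higher (1.59%) and 142 lower of 19790. The list also held Ggct at 0.61 and Cbs at -0.70. Of 17 peroxisome proteins listed beside catalase, none was called by limma-trend or edgeR. DESeq2 called Phyh (0.40) and Pex19 (0.28) higher, where it called 1.59% of all genes as higher. At an unadjusted limma-trend p under 0.05, 5 were higher and 0 lower, against 5.36% of all genes higher. The median of the list was 0.10.

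**Figure D5:**
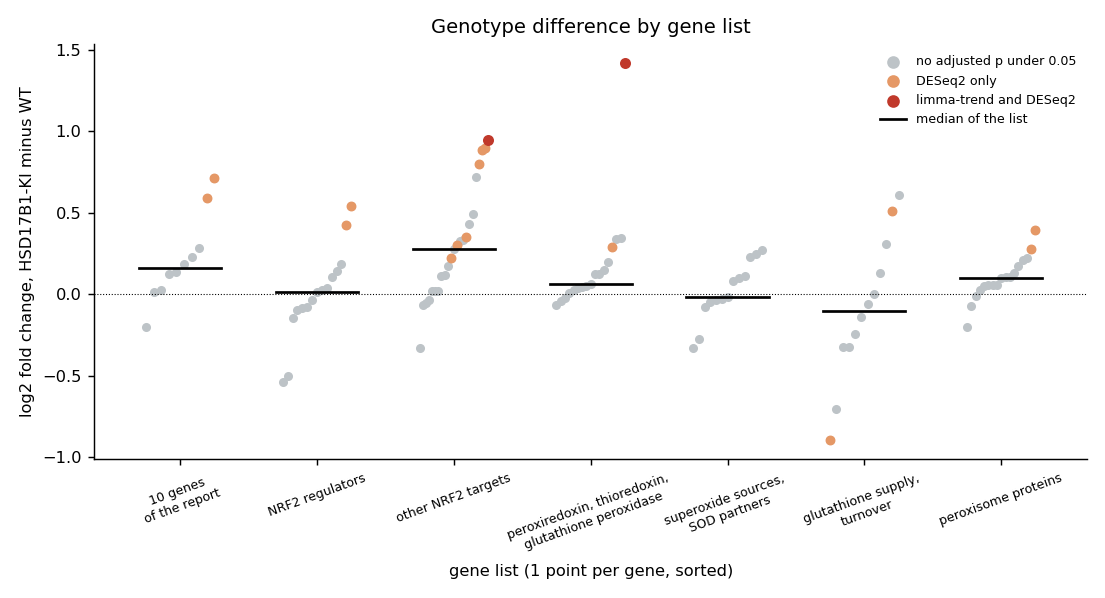
Log2 fold change (vertical axis, HSD17B1-KI minus WT, limma-trend) of the 10 genes and of 6 further gene lists, 1 point per gene, with a black line for the median and colors for genes with an adjusted p under 0.05. Hmox1 and Gpx3 are the red points, and the list of other NRF2 targets has the highest median, 0.28.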

How the data were processed

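Whole-ovary mRNA (TruSeq Stranded) of 7 HSD17B1-KI and 8 WT mice was sequenced. The authors trimmed the reads with Skewer, aligned them to mm10 with STAR 2.7.3 and deposited size-factor normalized counts (signal) of 27907 genes. The program that counted the reads, its annotation and its strand setting are not given in the sources used here. Division by the smallest step of each library gave whole reads for 100% of values (tolerance 0.01), which were used for edgeR and DESeq2.

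The members and gene lists were chosen with earlier results of these data known. limma-trend used log2(normalized count + 1) and genotype alone for genes averaging 2 or more counts, where the study used DESeq2. The other settings were pseudocounts of 0.1 and 10, a minimum mean of 10 or none, upper quartile and quantile scaling, array weights, DESeq2, edgeR (TMM), a block on replicate number, a threshold of 0.1, 4 marker scores as covariates (oviduct, luteal, theca and interstitial, macrophage) and leaving out each mouse. Ranges of an adjusted p leave out the block. The correlations without 2 mice were added after seeing the data.

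The text names the 10 members, Hsd17b1, genes of the lists called by limma-trend, the 2 highest and 2 lowest log2 fold changes per list and the 3 genes most like each member. Results of 3 genes that this rule names are not reported here. Keap1, Txnrd3, Me1, Pgd, Slc48a1, Star and Cyp17a1 were named after their values were seen. The theca and interstitial marker Aldh1a1, a retinaldehyde dehydrogenase, was also called (log2 fold change 1.02, adjusted p 0.0276 by limma). The fits were tested on simulated data. Positions were from GENCODE M21 and promoter windows from RefSeq (GRCm38.p6). No source says whether mice were littermates. Fits were run in R 4.3.3 with DESeq2 1.42.0, edgeR 4.0.16 and limma 3.58.1, and tables were made with pandas 2.3.3 under Python 3.11.15.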

Additional observations from a re-analysis of the deposited data

How the results depend on the processing

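The number of members called was 0 with limma-trend. It was 1 with array weights, 1 with the macrophage score, 2 with the luteal score, 3 with the theca and interstitial score, 2 with DESeq2 and 2 at an adjusted p under 0.1, and 0 to 1 when 1 mouse was left out. Nqo1 passed with DESeq2 (log2 fold change 0.69), at 0.1 (0.72) and with the luteal (0.81) and theca and interstitial (0.78) scores. Sod3 passed with array weights (0.52), DESeq2 (0.58), at 0.1 (0.59) and with the luteal (0.65), macrophage (0.59) and theca and interstitial (0.62) scores, and without HSD17B1-KI 5 (0.61) or HSD17B1-KI 7 (0.65), with a range of 0.52 to 0.65 over the fits without 1 mouse. Cat passed with the theca and interstitial score (0.33). The sign turned for Gclc with that score (-0.12), for Nfe2l2 (-0.00489) and Srxn1 (-0.00511) with array weights, for Srxn1 with the luteal score (-0.0628) and for Sod2 with array weights (-0.0648), the luteal score (-0.0517) and without 1 of 6 mice, with a range of -0.0263 to 0.0735 over the fits without 1 mouse. Among members not called, leaving out 1 mouse moved the log2 fold change of Gclc between 0.19 and 0.45, Srxn1 between 0.0131 and 0.23, Sod1 between 0.0637 (without HSD17B1-KI 1) and 0.17, Txnrd1 between -0.25 and -0.13 and Nfe2l2 between 0.00119 and 0.0584. Calls across the table numbered 46, but 28 without a filter, 28 with quantile scaling, 125 with array weights, 456 with DESeq2, 146 at 0.1, 369, 339 and 203 with the luteal, theca and interstitial and macrophage scores, and 6 (without HSD17B1-KI 2) to 139 (without HSD17B1-KI 5) without 1 mouse. Calls among the 97 list genes numbered 2, and then 1, 1, 4, 15, 7, 10, 9 and 10 in the same order, and 0 to 8 without 1 mouse. The cause of these changes was not tested.

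Mice of the same replicate number were not generally alike, as the correlation of deviations was between -0.55 and 0.55 over 7 pairs. Of 7 HSD17B1-KI mice, 1 correlated best with its own number. This cannot exclude a pairing by design, since other differences between mice enter the same correlation. With the replicate block, which leaves out WT 8, limma-trend called 0 genes in the table and 0 among the 97, and Sod2 was at -0.00823.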

Other observations

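At the other end of the likeness measure, the genes that ran most against each member were read in the same way, over 15 mice with genotype means subtracted, and were named after their values were seen. Gclc ran most against Cd244 (r = -0.98), Nsg1 and Aldh5a1 (-0.97 each), and Srxn1 against Osbpl1a, Scg5 and Cadm3 (-0.94 each). Nqo1 ran most against Cyfip2 (r = -0.93), Slco1a5 and Azin1 (-0.87 each), and Nfe2l2 against the helicase gene Dhx35 (-0.93). For Cat the lowest r was that of Mat1a, a methionine adenosyltransferase (-0.91). The points share libraries and cell makeup, each is the extreme of many genes, and no test was made. In none of the 20 sets of mice (10 genes in 2 genotypes) did a single mouse stand apart from the others by Dixon's criterion.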
